A study of Pimephales promelas with 12 samples.

Results

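The sequences described here are 54 contigs that were found in the gut and in the liver of the fathead minnow (FHM, Pimephales promelas) and were almost absent from its brain. A contig is an assembled or single sequence that stands for a transcript. A member averaged 50 or more read counts over the gut libraries and 50 or more over the liver libraries, with at most 5 counts in each of the 6 brain libraries. The 54 members were 0.117% of the 46309 contigs with a count in any library, and 0.422% of the 12807 contigs that met the gut and liver limits whatever their level in brain, called the wider set here. They were chosen by the counts of all 12 libraries themselves, so their high level in gut and liver and their low level in brain are a description and were given no test.

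The study made a baseline survey of tissues in adult male FHM, a small cyprinid fish of aquatic toxicology. The 12 RNA-seq libraries were 3 each of gut, liver, hypothalamus and telencephalon, from fish of an in-house culture. The methods name no treatment beyond the anaesthetic with which the fish were killed, and no transgene or mutation. The tissues were taken from 3 individual males, and the labels number the libraries of each tissue 1 to 3. Gut and liver libraries with the same number varied together over 35041 contigs. The r of their deviations from the tissue mean was 0.420 to 0.510, against -0.307 to -0.0614 for different numbers. Deviations from the mean of 3 libraries sum to 0, so the negative values are tied to the positive ones and add nothing to them. Each number was therefore taken to mark 1 fish, though the brain libraries were not part of this comparison. The tissues are given only by the sample titles, and the marker lists drawn up for them could not be looked up, because the contigs carry no gene names and 0 of them matched the gene table of this species.

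The gut takes up nutrients and the liver receives them through the portal blood. Both organs grow out of the endoderm, and in vertebrates they share much machinery for handling lipids, bile acids and foreign compounds that neurons and glia use little or not at all. The hypothalamus links the brain to the pituitary, and the telencephalon is the front part of the forebrain. Which of these roles a member serves is not known here, since no gene or protein is assigned to any of them. Some members come from the Paracel assembly, where related sequences are placed in a numbered cluster (FHM_All_PTA_Assem, written here as PTA, then the cluster and the contig). Contigs of a cluster can be splice forms, alleles or copies of a gene, and the name does not say which.

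The members were a small part of each library. Their summed counts were 29957, 28864 and 28161 in the gut libraries of fish 1, 2 and 3 and 19948, 21475 and 14825 in the liver libraries. In the brain they came to 58, 68 and 68 counts in the hypothalamus libraries and 63, 58 and 58 in the telencephalon libraries. These sums were 0.146 ± 0.00692% of the gut libraries and 0.119 ± 0.0148% of the liver libraries (SD, n = 3 each). Gut libraries totalled 19301093 to 20801155 counts and liver libraries 14546298 to 16721570. Totals of the hypothalamus libraries were 18845704 to 22589095, and those of the telencephalon libraries 17729942 to 21463583. Levels are given as CPM (counts scaled to a library of fixed size) with TMM, a factor that corrects for the few very abundant contigs of a library. The factors were 0.917 to 0.937 in gut, 0.616 to 0.682 in liver and 1.13 to 1.40 in brain. A count of 3, the limit that a count of 0 allows for counting error alone, was then 0.157 to 0.167 CPM in gut, 0.291 to 0.302 CPM in liver and 0.102 to 0.131 CPM in brain. Because the rule used raw counts, its limit of 50 counts asked for 2.62 to 2.78 CPM in gut and 4.85 to 5.04 CPM in liver, and its limit of 5 counts allowed 0.170 to 0.219 CPM in brain.

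**Figure D1:**
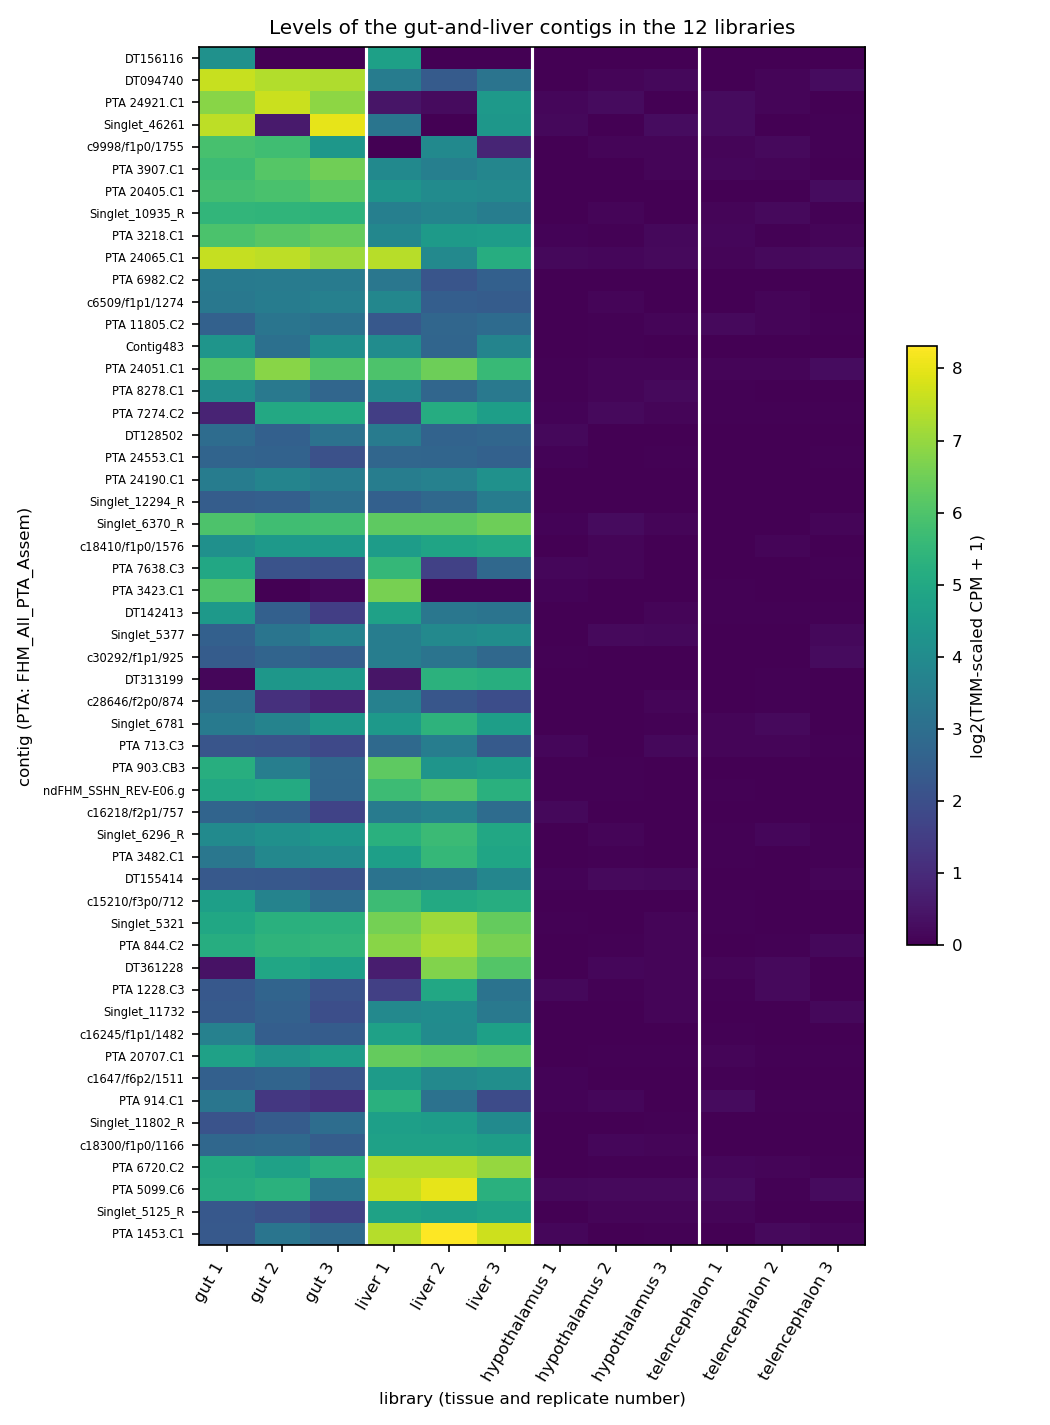
The color gives the level of each of the 54 contigs (rows) in each of the 12 libraries (columns) as log2 of TMM-scaled CPM plus 1, with the contigs ordered by their gut to liver difference and the untested DT156116 on top. The 6 brain columns are dark for every contig, the top rows are brighter in gut and the bottom rows in liver, and a few rows such as PTA 3423.C1 and DT361228 change color between fish in both tissues.

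Most members had a few counts in brain. Whether these reads came from transcripts of the brain was not tested. No count was listed in any brain library for 4 members, PTA 24190.C1, PTA 6982.C2, Singlet_12294_R and DT156116, and the other 50 had at least 1. The highest brain count was 1 for 8 members, 2 for 10, 3 for 9, 4 for 15 and 5 for 8. Over the 6 brain libraries a member had a median of 6 counts, the highest sum was 22 counts in PTA 5099.C6, and 5 members had a count in every brain library. PTA 24190.C1 had 184, 238 and 185 counts in gut and 105, 120 and 174 in liver. With a floor of 3 counts over all brain libraries, its level was at least 577-fold higher in gut and at least 692-fold higher in liver than in brain. These are bulk tissues, so fewer cells of a type and less RNA per cell cannot be told apart. All 53 members that could be tested were called higher in both organs than in each brain region, where 14.1% of all contigs were called higher in gut than in hypothalamus, 20.2% higher in gut than in telencephalon, 12.8% higher in liver than in hypothalamus and 17.8% higher in liver than in telencephalon. The rule fixed that count, and nothing was read from it.

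The kinds of sequence among the members were set beside those of the wider set and of all contigs. Contigs of the Paracel assembly made up 24 of the 54 members (44.4%), against 72.6% of the wider set and 46.9% of all contigs. Unassembled single sequences were 11 members (20.4%, against 7.11% and 17.8%). PacBio isoforms, which are sequences from long reads after clustering and error correction, were 10 (18.5%, against 8.05% and 10.2%). Expressed sequence tags were 7 members (13.0%, against 11.8% and 24.3%), and the last 2, Contig483 and ndFHM_SSHN_REV-E06.g, carry names of other kinds. These shares were not tested.

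The members reached from just above the limits to far beyond them. Mean counts were 56 to 3135 in gut (median 243.5) and 51.7 to 2311 in liver (median 168.5), which is 3.05 to 171 CPM in gut and 5.02 to 228 CPM in liver. The 5 members with the highest mean CPM over the 6 gut and liver libraries were PTA 24065.C1, PTA 1453.C1, PTA 5099.C6, PTA 6720.C2 and DT094740. Their mean levels were 119.8, 117, 93.9, 90.9 and 89.1 CPM, and an order by raw counts would differ. Lengths are known only for the PacBio isoforms, so this order mixes the level of a transcript with its length. Of the 54 members, 33 had at least 50 counts in every gut and every liver library, while 12 fell below that in at least 1 gut library and 18 in at least 1 liver library.

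Gut and liver were compared to ask in which of these organs each member was higher. The rule did not ask which was higher, but it used these same counts and its limits were unequal in CPM. By mean TMM-scaled CPM, 38 members were higher in liver and 16 in gut, although some of the largest differences were on the gut side. By mean raw count, 25 were higher in liver and 29 in gut, so the direction depended on the scaling. Of the 53 members tested, 20 (37.7%) differed between gut and liver, 5 higher in gut and 15 higher in liver (quasi-likelihood test of edgeR, p adjusted by Benjamini-Hochberg over 42878 contigs, under 0.05). Of all contigs tested, 21.4% were called, 11.6% higher in gut and 9.87% higher in liver. Of the wider set, 31.7% were called, 14.1% higher in gut and 17.6% higher in liver. The members called were more often on the liver side than on the gut side. The median log2 fold change, gut over liver, was -0.81 over the members, -0.11 over the wider set and 0.05 over all contigs tested. Since the same limit in counts asked for a higher level in liver than in gut, the rule itself could favor contigs that are higher in liver. The wider set had the same gut and liver limits, and why its median differed from that of the members was not tested. Gut and liver libraries did not overlap in CPM for 30 of the 54 members (55.6%), 8 of them higher in gut, against 51.6% of the wider set. Without the TMM factors the median was -0.23 over the members and 0.47 over the wider set, where it moved by 0.58 towards gut. Of the 17 members then called, 41.2% were higher in gut, rather than 25%. Of all contigs then called, 77.6% were higher in gut, rather than 54.0%. With the fish as a block, that is with the pairing of libraries used, 32 members were called, 8 higher in gut and 24 higher in liver, among them all 20 of the unpaired comparison.

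**Figure D2:**
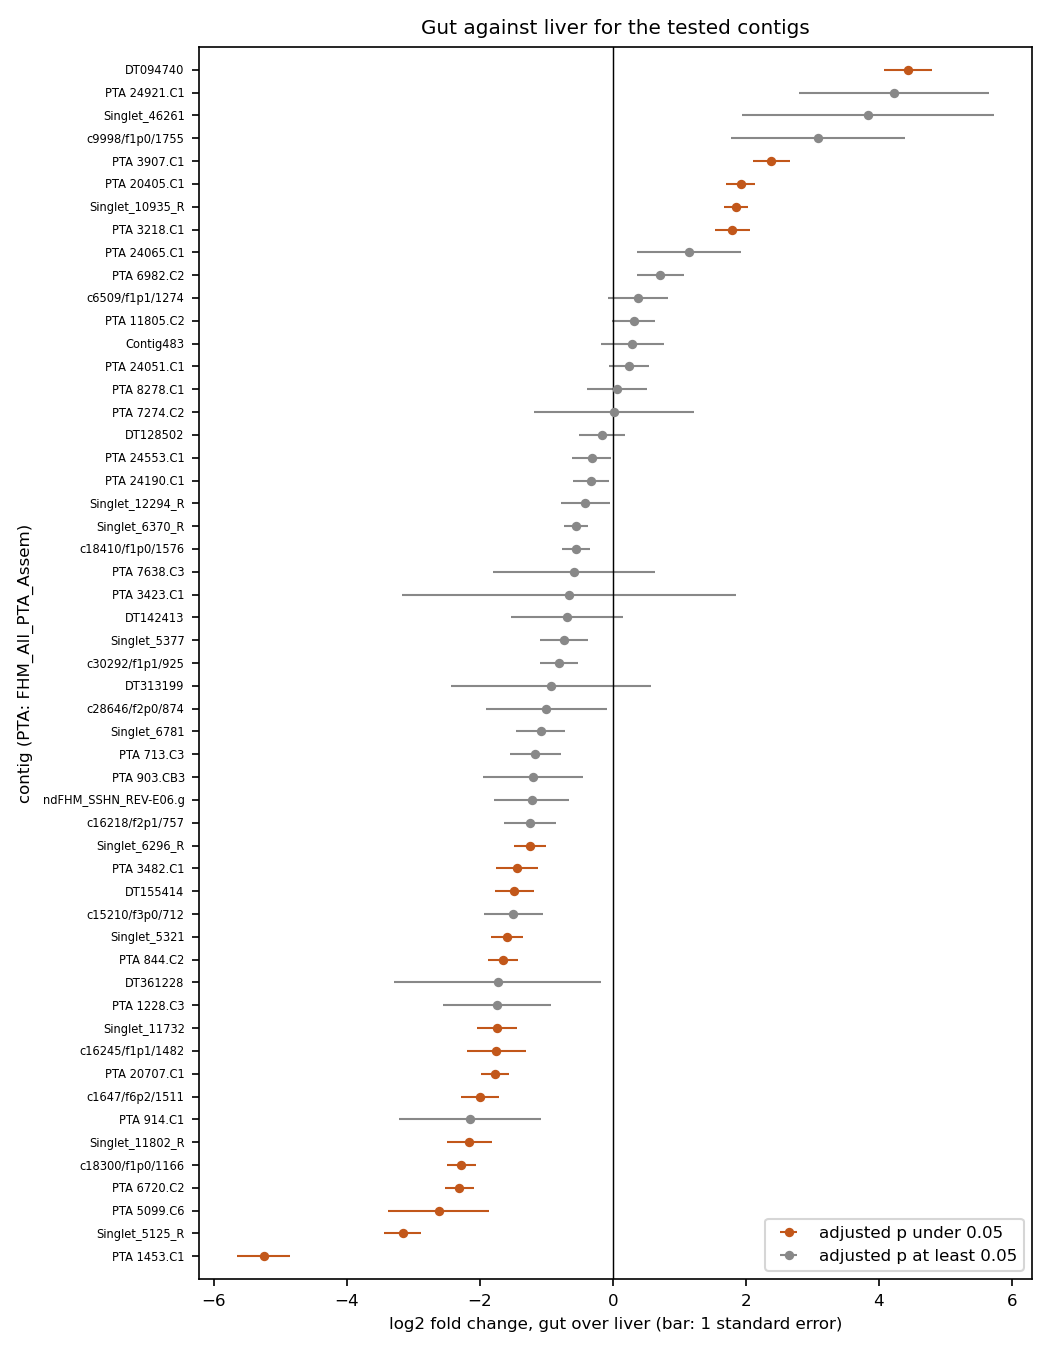
Points give the log2 fold change of gut over liver for the 53 tested contigs, bars 1 standard error, and color whether the adjusted p of edgeR's quasi-likelihood test was under 0.05. The 5 called contigs on the gut side lie between 1.80 and 4.44 and the 15 on the liver side between -5.25 and -1.24, and the contigs with long bars differed strongly between fish.

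The clearest gut member was DT094740, an expressed sequence tag. It had 3456, 3106 and 2842 counts in the gut libraries, against 102, 43 and 81 in the liver libraries and 0 to 5 in brain. Its level was 171 ± 18.7 CPM in gut and 7.50 ± 3.05 CPM in liver (SD, n = 3 each), a log2 fold change of 4.44 ± 0.36 (SE, edgeR adjusted p = 0.000217). The groups did not overlap, and its liver level was near the lower end of the members. PTA 3907.C1 had 905, 1307 and 1621 counts in gut and 145, 112 and 129 in liver, a log2 fold change of 2.38 ± 0.27 (SE, edgeR adjusted p = 0.000901). PTA 20405.C1 had 1005, 1148 and 1317 counts in gut and 189, 154 and 140 in liver, a log2 fold change of 1.92 ± 0.22 (SE, edgeR adjusted p = 0.0008). In each of these contigs every gut library was above every liver library. The remaining members called higher in gut were Singlet_10935_R and PTA 3218.C1, with log2 fold changes of 1.85 and 1.80.

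On the liver side PTA 1453.C1 stood far from the others. It had 71, 161 and 114 counts in gut, against 1671, 3249 and 2012 in liver, with no overlap. Its level was 6.23 ± 2.25 CPM in gut and 228 ± 77.5 CPM in liver (SD, n = 3 each), a log2 fold change of -5.25 ± 0.40 (SE, edgeR adjusted p = 0.000163). Singlet_5125_R, the member with the lowest gut mean, had 70, 60 and 38 counts in gut and 269, 252 and 268 in liver, and fell to a log2 fold change of -3.16 ± 0.28 in gut over liver (SE, edgeR adjusted p = 0.000298). The liver libraries of this contig were nearly equal. PTA 5099.C6 had 622, 730 and 158 counts in gut and 1883, 2641 and 375 in liver, a log2 fold change of -2.62 ± 0.76 (SE, edgeR adjusted p = 0.0462). It was lower in gut within each fish, but its counts in fish 3 were the lowest of both tissues, and its liver library of fish 3 overlapped the gut libraries in CPM. With the fish as a block, its log2 fold change was -2.50 (edgeR adjusted p = 0.000653). In the unpaired test its adjusted p rose to 0.105, 0.119 and 0.114 without gut replicate 1, 2 or 3 (same edgeR test). It rose to 0.101 and 0.138 without liver replicate 1 or 2 (same unpaired edgeR test). The call of c16245/f1p1/1482 (edgeR adjusted p = 0.0292) was likewise lost without gut replicate 2 or 3 or liver replicate 1 or 3 (adjusted p 0.118, 0.102, 0.0776 and 0.0886), and that of PTA 3482.C1 (adjusted p = 0.0155) without gut replicate 2 or liver replicate 2 (0.0636 and 0.0501, same edgeR test). Singlet_6296_R and DT155414 lost theirs without gut replicate 2 (0.0515 and 0.0501, same edgeR test). Those 5 contigs also lost the call without the TMM factors and against a threshold of a 2-fold difference, and the other 15 kept it in every alternative run.

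The remaining 33 tested members did not pass the unpaired test, 11 of them with a log2 fold change above 0. The estimates nearest to 0 were those of PTA 7274.C2 (0.02 ± 1.21), PTA 8278.C1 (0.06 ± 0.45) and DT128502 (-0.16 ± 0.34, SE). These estimates came with very unequal spread between fish. DT128502 had 121, 92 and 140 counts in gut and 99, 54 and 56 in liver, which is within 2-fold between fish in each tissue. PTA 7274.C2 had 14, 590 and 586 counts in gut and 19, 357 and 242 in liver, so that fish 1 was far below the others in both tissues and its standard error was the largest of the 3.

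A pair of members kept nearly the same proportion in every library. PTA 844.C2 had 638, 790 and 785 counts in gut and 1136, 1577 and 958 in liver. Singlet_5321 had 537, 712 and 709 counts in gut and 952, 1381 and 792 in liver. The ratio of the first to the second was 1.11 to 1.21 in the 6 libraries, the most even of the 1431 pairs of members. The next, Singlet_5321 over Singlet_6296_R, had ratios of 1.97 to 2.71. Both contigs of the first pair were called higher in liver, with log2 fold changes of -1.65 and -1.59 (edgeR adjusted p = 0.00186 and 0.00318). Whether the pair comes from 1 gene was not tested, since no sequences of the contigs were used, and the pair was chosen after its values were seen.

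Isoform lengths allowed levels to be scaled by length for the 10 PacBio members. They were 712 to 1755 bases long with a median of 1220, close to the 1237 of all PacBio isoforms and shorter than the 1507 of the 1031 isoforms of the wider set. Only uniquely mapped reads were counted, and how much of each isoform is shared with other contigs is not known. The order of the isoforms can depend on this. Per kilobase, c9998/f1p0/1755 had the highest level of the 10 in gut (25.2 ± 12.01 CPM per kb, SD, n = 3) and the lowest in liver (2.86 ± 4.57). The shortest, c15210/f3p0/712, had 20.5 ± 12.8 CPM per kb in gut and the highest level of the 10 in liver (55.3 ± 14.3). In gut these 2 isoforms did not differ beyond their spread. The lowest gut level was that of c1647/f6p2/1511, with 3.01 ± 0.611 CPM per kb in gut and 11.6 ± 2.89 in liver (log2 fold change -2.002, edgeR adjusted p = 0.00231). The isoform c18300/f1p0/1166 had 105, 117 and 80 counts in gut and 263, 269 and 237 in liver, or 4.69 ± 0.782 CPM per kb in gut and 21.8 ± 1.14 in liver (log2 fold change -2.28, edgeR adjusted p = 0.000418).

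For some members the liver mean came mostly from 1 library. PTA 24921.C1 had 2035, 3767 and 2140 counts in gut but 4, 2 and 208 in liver, so that the liver library of fish 3 held 97.2% of its liver counts and alone carried it past the limit. The isoform c9998/f1p0/1755 had 1057, 1025 and 361 counts in gut and 0, 147 and 8 in liver, and its liver mean of 51.7 counts was the lowest of the members. PTA 24065.C1, the member with the most reads, had 3384, 3406 and 2445 counts in gut and 1689, 143 and 345 in liver, with fish 1 high in liver alone. PTA 1228.C3 had 70, 102 and 61 counts in gut and 20, 315 and 80 in liver. None of these 4 passed the test between gut and liver (edgeR adjusted p = 0.0785, 0.149, 0.365 and 0.184 in the order given). They were the members that differed at least 10-fold between fish in liver and under 3-fold in gut, 7.41% of the members, against 94 (0.734%) of the 12807 contigs of the wider set. The opposite pattern was seen in 0 members and in 17 (0.133%) of that set. The limits of 10-fold and 3-fold were chosen after the values were seen, and the shares were not tested.

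The members were then compared between fish, which the rule did not use because it averaged over them. Several members were present in some fish and nearly absent from others, in gut and liver alike. In a model with tissue and replicate number over the 6 gut and liver libraries, 9 of 53 members (17.0%) differed between fish (edgeR's quasi-likelihood test, adjusted p under 0.05 over 42878 contigs), where 2.06% of all contigs and 2.99% of the wider set did. At an unadjusted p under 0.05 there were 17 members. The model left few degrees of freedom, and whether that shaped the results of leaving out a library was not tested. With any 1 library left out, a fish was left with a single library, and no member kept its call in this test. Nearly all calls over all contigs were lost as well, so this loss is not particular to the members. With edgeR's older form of the same test, 4 passed without gut replicate 1, 5 without liver replicate 1 and 9 to 12 without any other single library, against 11 with all libraries. The rule set limits on means, so a contig with many counts in a single fish could pass. The same holds for the wider set, and why the shares called differed was not tested.

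**Figure D3:**
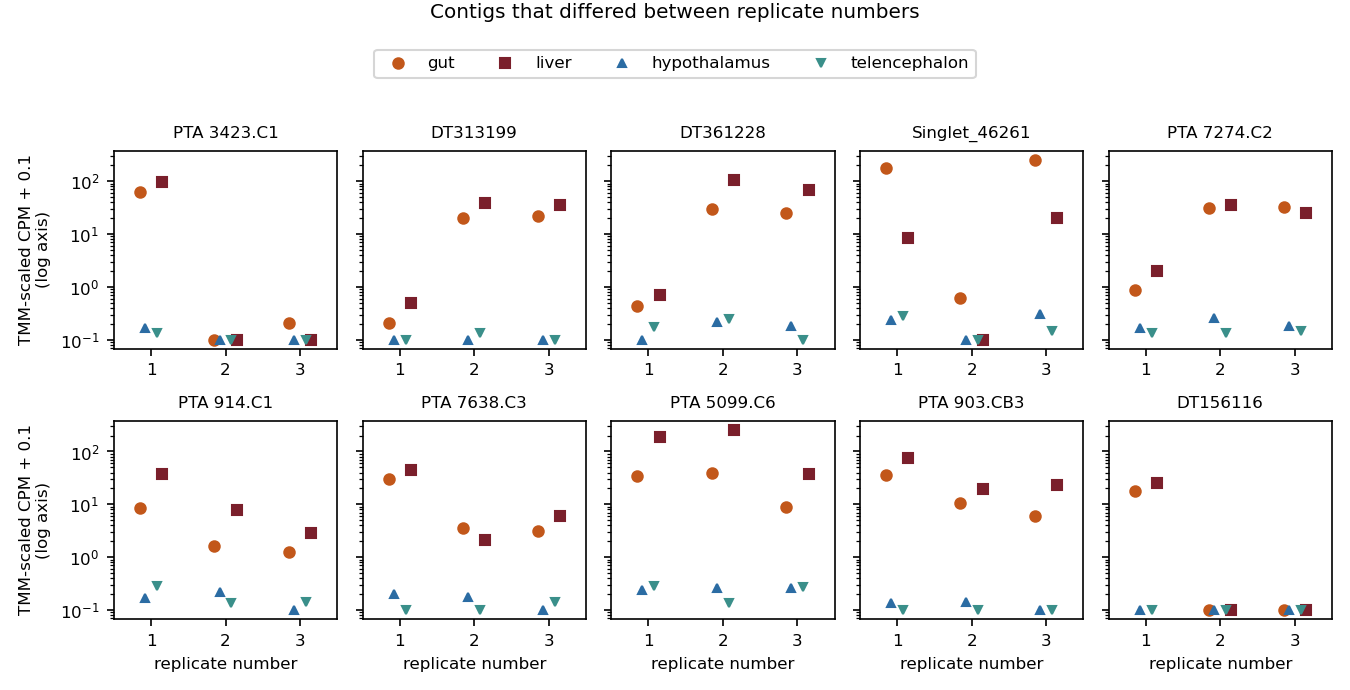
Each panel gives 1 contig, with the replicate number (the fish) on the x axis and TMM-scaled CPM plus 0.1 on a logarithmic y axis, for the 9 contigs that differed between fish and the untested DT156116. Gut and liver points move together, which the model favored in its choice of the 9. In PTA 3423.C1, for example, fish 1 had 1139 counts in gut and 964 in liver and the other fish 0 to 2. Brain points stay near the bottom.

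The smallest adjusted p belonged to PTA 3423.C1. Its counts in fish 1, 2 and 3 were 1139, 0 and 2 in gut and 964, 0 and 0 in liver (edgeR adjusted p = 0.00237). Fish 1 was thus at least 402-fold above fish 2 in gut and at least 330-fold above it in liver, with a floor of 3 counts per library. The 3 counts it had in brain were all in brain libraries numbered 1. DT313199 showed the reverse order. It had 2, 380 and 386 counts in gut and 4, 405 and 356 in liver, so fish 1 was low in both tissues (edgeR adjusted p = 0.00267). DT361228 had 6, 556 and 443 counts in gut and 6, 1073 and 668 in liver, again with fish 1 low, and its highest fish were 87.4-fold above fish 1 in gut and 174-fold in liver (edgeR adjusted p = 0.00297). In Singlet_46261 the low fish was fish 2. It had 3175, 10 and 4572 counts in gut and 84, 0 and 201 in liver (edgeR adjusted p = 0.00354).

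The other 5 contigs called between fish varied less. PTA 7274.C2, described above, was low in fish 1 (edgeR adjusted p = 0.0152). PTA 7638.C3 had 551, 65 and 55 counts in gut and 451, 21 and 60 in liver, high in fish 1 (edgeR adjusted p = 0.0195). PTA 914.C1 had 155, 29 and 21 counts in gut and 376, 80 and 27 in liver, with fish 1 the highest in both tissues (edgeR adjusted p = 0.0177). PTA 903.CB3 was also highest in fish 1, with 652, 203 and 108 counts in gut and 743, 197 and 225 in liver (edgeR adjusted p = 0.0456). PTA 5099.C6 was low in fish 3 (edgeR adjusted p = 0.021). The highest fish was the same in gut and liver for 7 of the 9 contigs and the lowest fish for 7 of the 9. The model looked for differences between fish that gut and liver share, so the choice of the 9 favored this agreement. For all 54 members the highest fish agreed in 27 (50%), against 44.2% of the wider set.

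DT156116 was not tested because it had counts in 1 fish only. It had 314, 0 and 0 counts in gut and 255, 0 and 0 in liver, and 0 in every brain library. With the same floor, fish 1 was at least 111-fold above fish 2 in gut and at least 87.4-fold above it in liver. Together with it, 7 members (13.0%) differed at least 10-fold between fish in both tissues with the same highest or lowest fish, with libraries under 3 counts set to 3. They were PTA 3423.C1, PTA 7638.C3 and DT156116, high in fish 1, PTA 7274.C2, DT313199 and DT361228, high in fish 2 and 3, and Singlet_46261, high in fish 1 and 3. Of the 12807 contigs of the wider set, 218 (1.70%) met this limit, which was chosen after the values were seen. Over these 7 members, the brain libraries with the numbers of the high fish held 39 counts in 22 values, and those with the numbers of the low fish held 8 counts in 20 values. Of the 39 counts, 15 belonged to Singlet_46261, while PTA 7638.C3 had 3 counts on each side, DT313199 had 1 in all and DT156116 none. The rule had limited these counts, and the 7 members were chosen after their values were seen. Whether brain libraries pair with gut and liver by number was not examined. The counts are a description only and were given no test.

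Variation between fish was also wider in the members as a whole than in the wider set. These sets were not matched in count level, on which such spread depends, and the difference was not tested. The median coefficient of variation of the CPM over the fish was 27.7% in gut and 32.4% in liver, against 17.0% in gut and 21.1% in liver for the wider set. At least a 10-fold range was seen for 9 members in gut (16.7%, against 2.15%) and for 12 in liver (22.2%, against 3.04%). The remaining members were steadier. Singlet_6370_R, for example, had 1113, 1014 and 992 counts in gut and 752, 779 and 866 in liver, and PTA 20707.C1 had 470, 347 and 414 in gut and 811, 759 and 662 in liver.

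The assembly clusters show what lies next to the members. Of the 24 Paracel members, 17 shared their cluster with other contigs that had counts, 27 in all, and 7 had no such relative. None of the 27 relatives was itself a member, where 0.117% of all contigs were. Of these relatives, 22 had more than 5 counts in a brain library and 14 had at least 50 there. By the limits of the rule itself, every contig of the wider set but the members (0.422%) had more than 5 counts in a brain library. The matching shares over all contigs were not counted, so these counts and those that follow were not read as a trait of the members. At least 1 relative with more than 5 counts in a brain library was found for 15 of the 17 members, and the exceptions were PTA 20707.C1 and PTA 914.C1. A relative with at least 50 counts in a brain library was found for 10 of the 17. Other clusters were low in brain as a whole, such as cluster 3423 with 2 to 6 counts and cluster 3218 with 3 to 11 counts in a brain library. The authors kept only uniquely mapped reads, so reads that matched related contigs equally well were not counted on either, and the split between contigs of a cluster is uncertain to that extent.

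**Figure D4:**
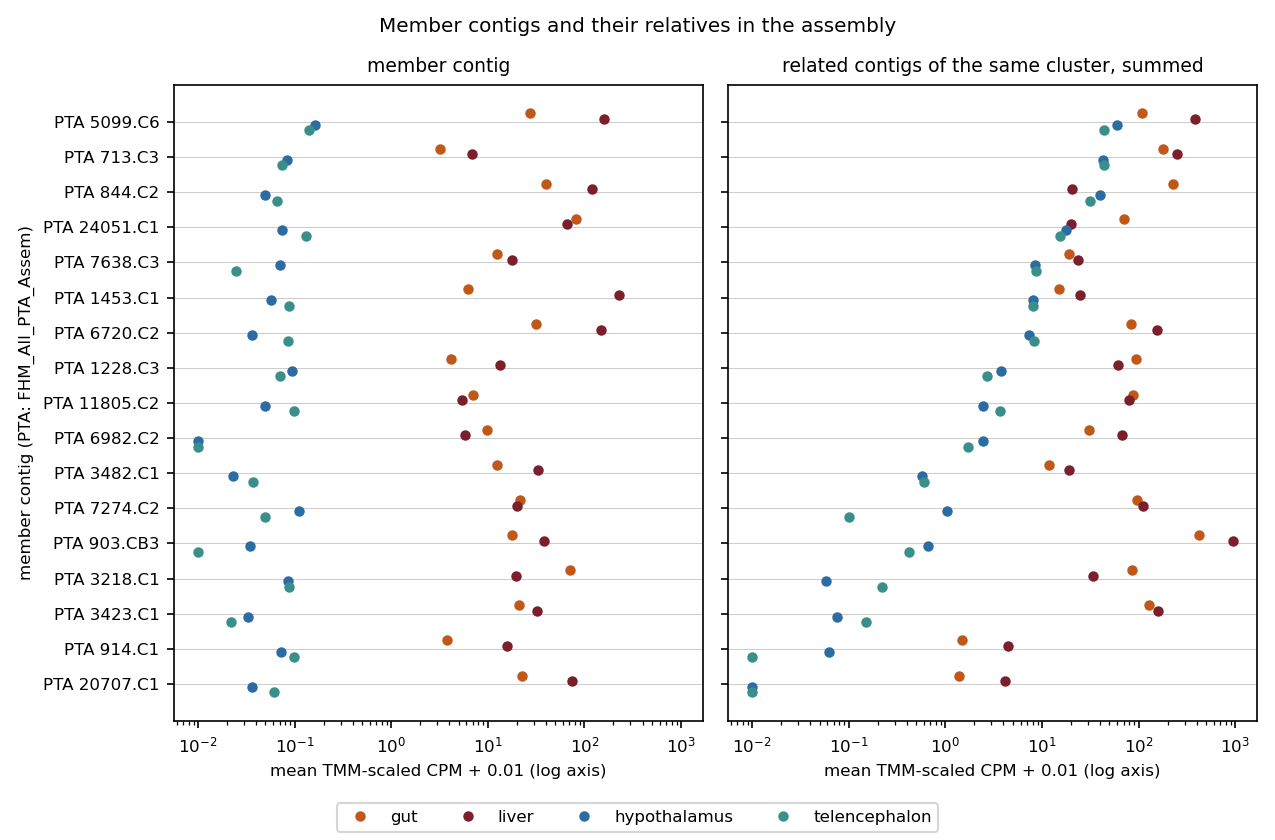
The left panel gives the mean TMM-scaled CPM plus 0.01 of the 17 members with relatives in each tissue and the right panel the same for the summed other contigs of each cluster, both on a logarithmic axis. The members lie below 0.2 CPM in both brain regions, where the rule limited them. The relatives of those at the top, such as PTA 5099.C6, PTA 713.C3 and PTA 844.C2, reach far higher levels in brain.

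PTA 844.C2 and its relative divided their cluster differently in gut and in liver. Counts of the relative PTA 844.C1 were 3738, 5245 and 3576 in gut, 243, 137 and 230 in liver, 2233, 673 and 427 in hypothalamus and 1694, 427 and 381 in telencephalon. The member made up 14.6, 13.1 and 18.0% of the cluster's counts in gut and 82.4, 92.0 and 80.6% in liver. In brain almost every count of the cluster fell on the relative. The rule held each member to at most 5 counts in a brain library, so it fixed the member's side of this split. PTA 24051.C1 was similar in brain, where its relative PTA 24051.C2 had 273 to 889 counts and the member at most 5. The relative had 1780, 1067 and 1041 counts in gut and 170, 220 and 211 in liver, whereas the member had 1177, 2169 and 1211 in gut and 630, 911 and 472 in liver. Counts of PTA 1453.C3, the relative of the strongest liver member, were 243, 278 and 299 in gut, 229, 215 and 296 in liver and 116 to 352 in brain. Its mean level was 14.9 CPM in gut and 24.5 CPM in liver, above 8.00 CPM in hypothalamus and 8.07 CPM in telencephalon. They ran the same way as in the member, but gut and liver lay much closer together.

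PTA 5099.C6 had the most relatives, 6 contigs, of which 4 had more than 5 counts in a brain library. Counts of its relative PTA 5099.C4 were 349, 684 and 372 in gut, 4567, 3376 and 1979 in liver and 747 to 2051 in brain. PTA 5099.C7 had 588, 333 and 1108 counts in gut and 265, 152 and 363 in liver, highest in fish 3, where the member was lowest. The summed cluster differed between fish by 1.22-fold in gut and 2.29-fold in liver, against 4.38-fold and 6.79-fold for the member alone. PTA 713.C3 was the smallest part of its cluster, 1.72 to 1.81% of its counts in gut and 1.94 to 3.39% in liver, and its relative PTA 713.C1 had 786 to 1203 counts in the brain libraries.

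The same comparison set the differences between fish beside the rest of the cluster. In cluster 3423 the relative PTA 3423.C3 had 1902, 2532 and 2614 counts in gut and 1605, 1809 and 1452 in liver, and at most 6 in a brain library. The summed cluster differed between fish by 1.27-fold in gut and 1.75-fold in liver, against at least 402-fold and at least 330-fold for the member. In cluster 7638 the relative PTA 7638.C1 had 126, 372 and 360 counts in gut and 71, 277 and 285 in liver, lowest in fish 1, where the member was highest. The member made up 77.3, 12.7 and 10.8% of that cluster in gut and 81.7, 6.44 and 16.2% in liver, and the summed cluster differed between fish by 1.48-fold in gut and 1.74-fold in liver. In cluster 7274 the relative PTA 7274.C1 had 2548, 1381 and 1355 counts in gut and 1901, 936 and 512 in liver, highest in fish 1, where the member was low. The member's share was 0.546, 29.9 and 30.2% in gut and 0.990, 27.6 and 32.1% in liver, and the cluster differed between fish by 1.38-fold in gut and 2.52-fold in liver. In these 3 clusters the share of the member, and much less the sum of the cluster, changed between fish, and the share was high in the same fish in gut and in liver. Their members had been called between fish by the model over both tissues, which favored such agreement.

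Clusters 914 and 903 were different. The sum of cluster 914 still differed between fish by 4.21-fold in gut and 4.61-fold in liver, against 7.41-fold and 13.8-fold for the member. In cluster 903 the relative PTA 903.CB2 had 13120, 7258 and 3108 counts in gut and 13029, 7615 and 8030 in liver, and so was highest in fish 1 like the member. Its cluster differed by 4.30-fold in gut and 1.81-fold in liver.

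Values near the limits were as follows. The lowest gut mean was 56 counts in Singlet_5125_R, and just outside was Singlet_16385_R with a gut mean of 47.3. The lowest liver mean was 51.7 in c9998/f1p0/1755, and just outside was FHM_All_PTA_Assem.3736.C1 with 45.3. The 8 members with a highest brain count of 5 were PTA 20405.C1, PTA 24051.C1, PTA 24921.C1, PTA 5099.C6, PTA 914.C1, Singlet_46261, Singlet_6370_R and DT094740, and 15 contigs just outside had a highest brain count of 6, PTA 3423.C3 among them. That contig had more counts than most members in gut and liver. By its name it shares its cluster with the member PTA 3423.C1.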

How the data were processed

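The deposited values are whole-number counts of reads per contig, not normalized. The authors trimmed reads with Cutadapt, aligned them by bowtie 2, discarded possible PCR duplicates and reads without a unique position, and tallied the rest with in-house scripts. Consensus sequences of the study and zebrafish sequences are both named as the target, and the contig names are of FHM origin. The submitters' processing notes also name SAMtools, DESeq and edgeR, without versions. Contigs absent from a list were set to 0.

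The members, lists and tests were chosen with earlier results of these data known. The tests used edgeR 4.0.16 in R 4.3.3, with DESeq2 1.42.0 as an alternative. They covered the 42878 contigs counted in 2 or more libraries of some tissue. The quasi-likelihood test was the form with bias-adjusted deviances, the only form that was run on simulated data. Gut and liver were fitted alone with TMM factors, and CPM values use factors from all 12 libraries. Each SE of a log2 fold change was its absolute value divided by the square root of the test's F statistic. Contigs were named by rule: for gut against liver the 3 largest and 3 smallest called log2 fold changes with the same direction in every fish and the 3 nearest to 0, the 5 highest mean CPM, the 3 smallest adjusted p between fish, the members and contigs nearest each limit, and the 3 members with the most relatives. Others were named after their values were seen.

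The pairing rests on the replicate numbers of the labels, the individual males of the methods and the correlations between gut and liver given in the report. Chi-square statistics of replicate pairs, divided by their degrees of freedom, lay between 45.1 and 79.8 for gut and between 62.3 and 79.0 for liver, so no library repeats another. Floors cover counting error only, since the reads carry no molecular identifiers. The alternatives were other scalings, filters and tests, a fit of all tissues, the replicate block, a 2-fold threshold, other limits of the rule and leaving out each library.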

Additional observations from a re-analysis of the deposited data

How the results depend on the processing

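The number of members depended on the limits of the rule. It was 4 with 0 counts asked of each brain library, 104 with at most 10 counts there, 100 with means of at least 20 counts, 31 with means of at least 100, and 33 with at least 50 counts in every gut and liver library. It was 81, all 54 members included, with limits on TMM-scaled counts, 51 with counts scaled by library size alone, and 49 to 64 with 1 library left out. For gut against liver, the replicate block gave 32 called members, 8 higher in gut and 24 higher in liver, and a single fit of all 12 libraries gave 25, 8 of them higher in gut. Leaving out 1 library gave 15 to 22 called members, 15 of them without gut replicate 2, with 5 to 8 higher in gut (8 without liver replicate 1) and 10 to 15 higher in liver. The other settings gave 15 to 27. Of the 20 called members, 15 kept the call throughout, and the other 5 lost it in 23 values without a change of sign. The estimates nearest to 0 changed sign, and with 1 library left out they ran between -0.52 and 0.61 for PTA 7274.C2, -0.41 and 0.39 for PTA 8278.C1 and -0.33 and 0.18 for DT128502. Over all contigs, 9190 were called, 4930 against a 2-fold threshold and 5904 without gut replicate 2. Between fish, no member kept its call in the main test with 1 library left out, and only edgeR's older test still called some. Those fits and the older test were chosen after seeing the data. In all other settings 8 to 12 members were called, with 8 without the TMM factors, where PTA 903.CB3 lost its call. There were also 8 with edgeR's own filter on low counts, and 8 with at least 50 counts asked in at least 3 of the 12 libraries. PTA 3423.C1, which had the smallest adjusted p between fish, was not tested under either of these filters. Over all contigs, 884 were called between fish, 1852 by DESeq2, 3879 with all 12 libraries and 1344 by the older test. With 1 library left out, nearly all calls were lost in the main test but not in the older test. At these depths a contig listed at 0 lies below about 3 counts, and with 3 fish small differences can be missed. The causes of these changes were not tested.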
